A study of Mus musculus with 16 samples.

Results

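The 10 genes described here encode receptors on the surface of macrophages: the adhesion receptor F4/80 (Adgre1), the mannose receptor (Mrc1), the class A scavenger receptors Msr1 and Marco, the class B scavenger receptor Cd36, the haemoglobin receptor Cd163, stabilin-1 (Stab1), the receptor tyrosine kinases Mertk and Axl, and folate receptor β (Folr2). They were chosen by name, as the rows of the count files that carry these symbols, and with earlier results of these data known. For Adgre1 and Mrc1 the paper itself reports higher expression in the Kaede-red cells of this experiment. All 10 were found among the 24421 genes of the files. Of these, 9 passed the filter on low counts and were tested within a table of 9642 genes, and Marco did not. The libraries were made from tumours of MC38-Ova cells, a mouse colon carcinoma line that carries ovalbumin, grown under the skin of C57BL/6 mice with a Kaede transgene and labelled as controls without treatment. Kaede is a protein whose fluorescence turns from green to red under violet light, so that illuminating the tumour marked the cells inside it at that moment as Kaede-red, and cells that entered afterwards were Kaede-green. Tumours were taken 24h or 72h after photoconversion, and viable cells with CD45 and CD11b, without TER119 and NK1.1, were sorted by colour. There were 4 libraries each of Kaede-green 24h, Kaede-red 24h, Kaede-green 72h and Kaede-red 72h, all of the same batch label. The labels give neither the age nor the sex of the mice. According to the paper all mice were female, and their age is given as a range for the whole study. Its replicates are described as tumours of separate mice. Photoconversion was done on the same day after tumour injection, so that tumours of 72h were also older than those of 24h. Tumour age and time after photoconversion cannot be told apart.

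Scavenger receptors bind modified lipoproteins, polyanions and debris and carry them into the cell. Mertk recognises dying cells through the bridging proteins Gas6 and protein S, and Axl through Gas6. These proteins attach to exposed phosphatidylserine. In tissues, F4/80, the mannose receptor and folate receptor β are used as surface markers of macrophages, and several of these receptors are low on blood monocytes and appear as monocytes mature.

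Total counts were between 3216858 and 15423085 per library. The ribosomal RNA gene Rn45s took 79.0 to 93.4% of the counts (median 89.6%) in Kaede-green libraries and 55.8 to 84.9% (median 69.2%) in Kaede-red libraries, which left 468092 to 912689 and 758192 to 5472477 counts for all other genes. Levels are given as CPM (counts per 1000000 counts) after TMM scaling, which sets the libraries on the level of the bulk of their genes. Depth and Rn45s share thus moved with colour. The genes used for the sort and for macrophages (Itgam, Ptprc, Csf1r, Cd14, Cd68, Lyz2 and Fcgr1) were detected in every group. They summed to 921 to 2177 and 1068 to 1492 CPM per library in Kaede-green cells of 24h and 72h. In Kaede-red cells the sums were 606 to 1014 and 1086 to 1399 CPM. Over both times Cd68, Csf1r and Itgam were higher and Lyz2 lower in Kaede-red cells at an adjusted p under 0.05 by edgeR. At 24h Cd68 was higher and Lyz2 lower, and at 72h Csf1r, Cd68, Itgam and Ptprc were higher. The label calls these cells macrophages, but CD11b is carried by other myeloid cells too, and 4 monocyte genes (Ly6c2, Ccr2, Plac8 and Chil3) summed to 905 to 1500.3 CPM in the Kaede-green libraries of 24h and 633 to 1049 CPM in those of 72h, against 456 to 555 and 408 to 642 CPM in the Kaede-red libraries.

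In 8 of the 10 genes the RefSeq promoter table of build GRCm38.p6 held a window from 250 bases before to 50 bases after a transcription start, in 9 windows. Motifs of factors known from macrophages were searched on both strands. The PU.1 core GAGGAA was found in the windows of Axl, Marco, Mrc1 and Stab1 and in 28.3% of all 32851 windows of the table. The AP-1 motif TGACTCA was found in Folr2 (5.2% of all windows) and the MAF motif TGCTGA in Cd36, Folr2 and Stab1 (19.5% of all windows). None of the 9 windows held the C/EBP motif TTGCNNAA (10.8% of all windows), the E-box CACGTG (7.15%) or the TATA motif TATAAA (13.6%). The windows of 3 genes are printed, because Mrc1 held the most matches to the PU.1 core, Folr2 had the largest difference between the colours, and Stab1 held 2 kinds of motif beside a smaller difference. Capitals mark the matches, which share no bases. They stand at chr2:14229164-14229463 on the + strand for Mrc1, at chr7:101845282-101845581 on the - strand for Folr2, where it is the second window, and at chr14:31168592-31168891 on the - strand for Stab1.
Mrc1: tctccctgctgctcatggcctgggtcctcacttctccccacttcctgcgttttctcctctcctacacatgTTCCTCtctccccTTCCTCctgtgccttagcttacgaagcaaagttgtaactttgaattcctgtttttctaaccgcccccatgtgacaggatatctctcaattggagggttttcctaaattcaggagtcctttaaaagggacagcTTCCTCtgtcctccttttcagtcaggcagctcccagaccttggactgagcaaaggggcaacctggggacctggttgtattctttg
Folr2: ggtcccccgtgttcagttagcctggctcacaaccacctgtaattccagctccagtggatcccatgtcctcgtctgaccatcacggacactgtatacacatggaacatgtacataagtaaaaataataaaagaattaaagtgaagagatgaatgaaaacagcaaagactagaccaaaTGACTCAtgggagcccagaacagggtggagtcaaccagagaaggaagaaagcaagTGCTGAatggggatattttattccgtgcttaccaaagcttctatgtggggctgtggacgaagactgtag
Stab1: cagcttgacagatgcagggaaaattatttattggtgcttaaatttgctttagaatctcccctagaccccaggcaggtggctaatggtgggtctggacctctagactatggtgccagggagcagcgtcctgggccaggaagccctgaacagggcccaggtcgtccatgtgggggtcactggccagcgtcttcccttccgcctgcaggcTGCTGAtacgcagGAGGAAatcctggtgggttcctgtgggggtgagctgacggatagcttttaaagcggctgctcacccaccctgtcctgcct

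All 9 tested genes had a positive difference between Kaede-red and Kaede-green cells at both times, and none was called lower, against 10.3% of all tested genes for both times, 4.3% for 24h and 8.76% for 72h. Over both times 7 of them were higher in Kaede-red cells at an adjusted p under 0.05 by edgeR's quasi-likelihood test, where 9.96% of all tested genes were called higher. At 24h 7 were higher (3.2% of all tested genes) and at 72h 6 (8.07%). Their median log2 fold change was 1.42 for the mean of the 2 times, 1.26 for 24h and 1.60 for 72h, against 0.057, 0.051 and 0.034 over all tested genes. Every Kaede-red library exceeded every Kaede-green library in 6 genes when both times were joined (1.19% of all tested genes), in 8 for 24h (7.07%) and in 7 for 72h (13%). Only 5 of the 9 (Adgre1, Mrc1, Msr1, Axl and Stab1) reached the filter in Kaede-green libraries by themselves. Cd36, Cd163, Folr2 and Mertk passed it through the Kaede-red libraries, which favours genes that differ, so that the counts and medians over the 9 are a description. With a filter of at least 10 counts in every library, which left the other 5, 5 were higher over both times (22% of the 3084 genes left), 5 at 24h (9.37%) and 4 at 72h (21.2%). In bulk samples, fewer cells that carry a receptor and less of its RNA per cell cannot be told apart.

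**Figure D1:**
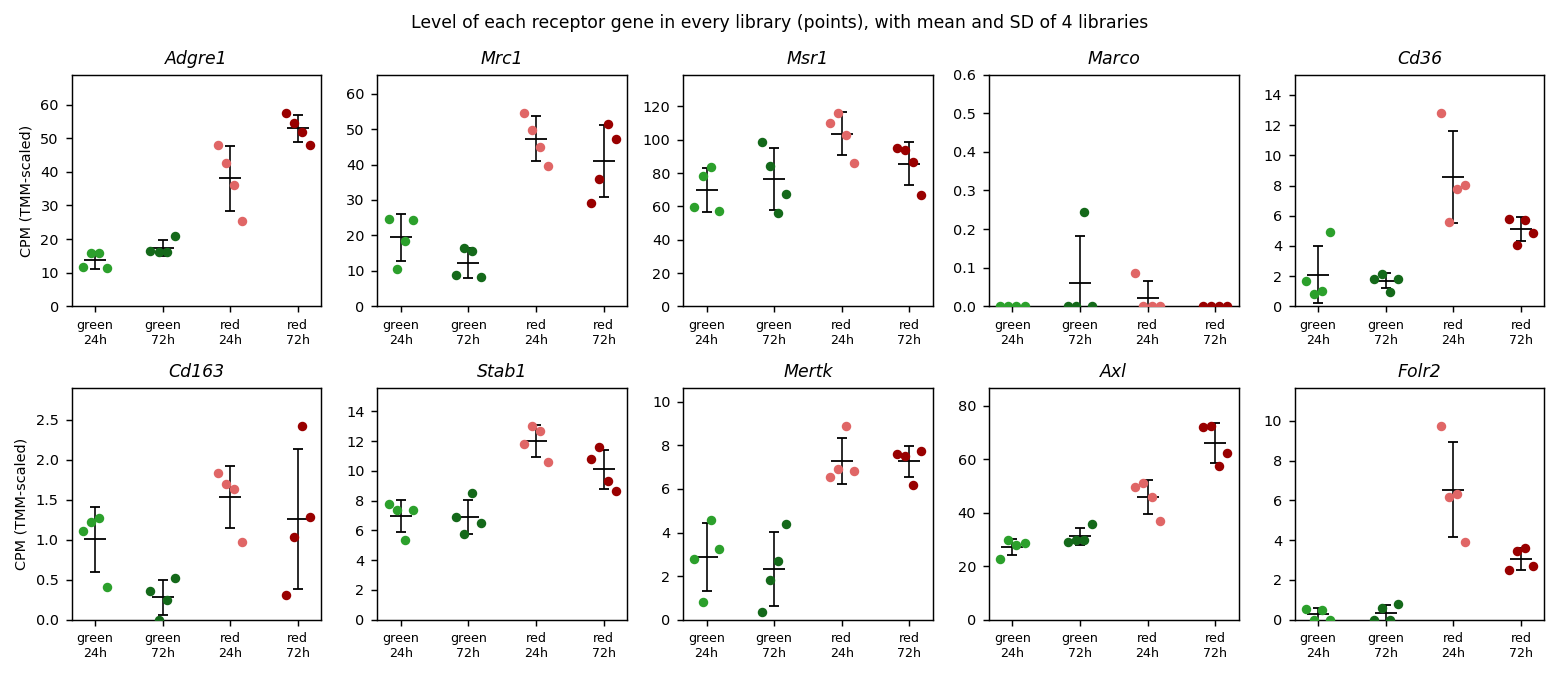
Level of the 10 receptor genes in CPM (vertical axis, linear from 0) in each of the 16 libraries (points), by colour and hours after photoconversion, with the mean and SD of 4 libraries. The Kaede-red points of Adgre1, Mrc1, Mertk, Axl, Stab1 and Folr2 lie above all Kaede-green points of both times, and Marco is at 0 in 14 libraries.

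Adgre1 encodes F4/80, an adhesion G protein-coupled receptor and the classical surface marker of mouse macrophages (chr17:57358691-57483527, + strand of mm10, as all positions of genes here). At 24h the Kaede-green libraries stood at 11.7, 15.9, 15.8 and 11.4 CPM, and the Kaede-red ones at 47.9, 42.6, 36.2 and 25.4 CPM. By 72h the former were at 16.4, 16.1, 16.3 and 21.0 CPM and the latter at 57.4, 54.5, 51.9 and 48.0 CPM. Every Kaede-red library was above every Kaede-green library of both times. The log2 fold change was 1.45 (95% interval 1.01 to 1.90, adjusted p = 3.97e-05, edgeR) at 24h and 1.60 (1.18 to 2.02, adjusted p = 1.88e-06) at 72h. Adgre4, a related adhesion receptor, was lower in Kaede-red cells over both times (log2 fold change -1.46 ± 0.25 SE, adjusted p = 5.01e-05). It was lower at 24h (-2.14, adjusted p = 0.000182) and was not called at 72h (-0.77, adjusted p = 0.121). Adgre5, another relative, was lower at 24h (-1.01, adjusted p = 0.0431). It was not called at 72h (0.81, adjusted p = 0.0597) or over both times (-0.10, adjusted p = 0.796).

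Mrc1, the mannose receptor CD206, binds sugars on microbes and on glycoproteins that macrophages clear (chr2:14229392-14332057, + strand). In the Kaede-green libraries of 24h it was at 24.5, 10.6, 18.4 and 24.5 CPM, and in the Kaede-red libraries at 54.5, 49.8, 44.9 and 39.7 CPM. After 72h the levels were 8.74, 16.4, 15.6 and 8.30 CPM against 29.3, 35.9, 51.5 and 47.3 CPM, in the same order. The colours did not overlap at either time, and the lowest Kaede-red library at 72h was close to the highest Kaede-green libraries of 24h. The difference was 1.29 on the log2 scale (95% interval 0.78 to 1.80, adjusted p = 0.00101) at 24h and 1.73 (1.21 to 2.24, adjusted p = 1.12e-05) at 72h. Mir511 lies within the span of the gene on the same strand. Whether it shares bases with an exon of Mrc1, and so reads, was not examined.

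Msr1, the class A receptor for modified lipoproteins (chr8:39581685-39642673, - strand), was the most abundant of the 10 per kilobase in 3 of the 4 groups and had the smallest log2 fold change between the colours at 72h and over both times. Kaede-green cells held 59.6, 78.5, 83.4 and 57.1 CPM at 24h and 98.7, 84.1, 55.9 and 67.4 CPM at 72h. Kaede-red cells held 109.8, 116, 103 and 85.9 CPM at 24h and 94.9, 93.7, 86.8 and 66.9 CPM at 72h. The colours stood apart at 24h, although narrowly, and overlapped at 72h. Neither the difference at 24h (log2 fold change 0.57, 95% interval 0.15 to 0.98, adjusted p = 0.0871) nor that at 72h (0.16, -0.24 to 0.57, adjusted p = 0.639) passed the threshold. Over both times it was 0.37 (0.08 to 0.65, adjusted p = 0.0664), which other settings placed on either side of the threshold. At 24h it was called in 3 of 8 other settings, among them DESeq2 (adjusted p = 0.0440) and a filter of at least 10 counts in every library (adjusted p = 0.00662). Marco, the other class A receptor (chr1:120474538-120505024, - strand), had 1 count in 1 Kaede-green library at 72h, 1 count in 1 Kaede-red library at 24h and none in the other 14 libraries. A count of 0 allows up to 1.67 CPM in the shallowest Kaede-green library at 24h and 0.0630 CPM in the deepest Kaede-red library at 72h, so that no difference was detectable at this depth (the limits cover counting error only).

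Cd36, the class B receptor that takes up oxidised lipoproteins and long-chain fatty acids (chr5:17781690-17888801, - strand), was sparse in Kaede-green cells. There it was measured at 1.67, 0.817, 1.02 and 4.90 CPM at 24h, which were 3, 2, 4 and 12 counts, and at 1.82, 2.13, 0.972 and 1.82 CPM at 72h. Kaede-red cells held 12.8, 5.59, 7.78 and 8.06 CPM at 24h and 5.78, 4.08, 5.74 and 4.87 CPM at 72h. Within each time the colours did not overlap, but Kaede-green 24h replicate 4 was above 2 of the Kaede-red libraries of 72h. The log2 fold change was 2.08 (95% interval 1.23 to 2.94, adjusted p = 0.00137) at 24h and 1.61 (0.77 to 2.45, adjusted p = 0.00562) at 72h. Without Kaede-green 24h replicate 4 the value at 24h was 2.93.

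Cd163 takes up complexes of haemoglobin and haptoglobin (chr6:124304656-124330527, + strand) and was close to the limit of detection. Kaede-green libraries held 11 counts in all at 24h and 4 at 72h, and Kaede-red libraries 59 and 126. On the CPM scale Kaede-red cells were at 1.84, 1.70, 1.63 and 0.967 at 24h and at 0.312, 1.03, 2.41 and 1.28 at 72h, against 1.11, 1.23, 1.28 and 0.408 and 0.364, 0, 0.243 and 0.519 in Kaede-green cells. The colours overlapped at both times. The log2 fold changes of 0.56 at 24h (95% interval -0.83 to 1.96, adjusted p = 0.703) and 1.99 at 72h (0.33 to 3.66, adjusted p = 0.0919) did not pass the threshold. Without Kaede-red 72h replicate 1, the lowest of its group, the difference at 72h was 2.34 (adjusted p = 0.0470) and that over both times 1.45 (adjusted p = 0.0489), both past the threshold.

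Stab1 encodes stabilin-1, a clearance receptor of macrophages and of some endothelial cells (chr14:31139013-31168641, - strand). Its Kaede-green libraries were at 7.80, 7.36, 5.36 and 7.35 CPM at 24h and at 6.92, 5.79, 8.51 and 6.48 CPM at 72h. Its Kaede-red libraries were at 11.8, 13.0, 12.7 and 10.6 CPM at 24h and at 10.8, 11.6, 9.36 and 8.68 CPM at 72h. They lay above every Kaede-green library, by a small margin at 72h. Stab1 was higher over both times (log2 fold change 0.68, 95% interval 0.33 to 1.02, adjusted p = 0.00369) and at 24h (0.81, 0.31 to 1.31, adjusted p = 0.0380), and at 72h the difference of 0.54 (0.07 to 1.01, adjusted p = 0.105) did not pass the threshold. Leaving out 1 library at a time ended the call at 24h in 8 of 16 fits, with the highest adjusted p, 0.151, without Kaede-green 24h replicate 3. Stab1 overlaps the end of Nt5dc2 on the other strand by a short stretch, and whether strand was used in counting is not given in the sources used here.

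Of the kinases that bind dying cells through bridging proteins, Mertk (chr2:128698956-128802894, + strand) was at 2.79, 0.817, 4.59 and 3.26 CPM among Kaede-green and at 6.57, 6.92, 8.87 and 6.83 CPM among Kaede-red libraries of 24h. At 72h the values were 0.364, 1.83, 2.67 and 4.41 CPM and 7.61, 7.50, 6.19 and 7.75 CPM. The Kaede-green libraries rested on 1 to 18 counts each and spread widely, whereas the 8 Kaede-red libraries lay close together and above all of them. The log2 fold change was 1.26 (95% interval 0.47 to 2.05, adjusted p = 0.0405) at 24h and 1.58 (0.82 to 2.34, adjusted p = 0.00271) at 72h. In 9 of 16 fits without 1 library the gene was not called at 24h, with the highest adjusted p, 0.140, without Kaede-green 24h replicate 2. The span of Mertk overlaps that of the antisense gene Gm14011, with which it may share reads where exons coincide, which was not examined.

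Axl (chr7:25757273-25788705, - strand) was more abundant and more even within groups. Kaede-green cells stood at 22.8, 29.8, 27.8 and 28.6 CPM at 24h and at 29.1, 29.9, 29.7 and 35.8 CPM at 72h. Kaede-red cells stood at 49.4, 51.0, 45.8 and 36.9 CPM at 24h and at 72.0, 72.2, 57.4 and 62.1 CPM at 72h. All 8 Kaede-red libraries were above all 8 Kaede-green libraries. The log2 fold change was 0.74 (95% interval 0.36 to 1.12, adjusted p = 0.0108) at 24h and 1.08 (0.71 to 1.45, adjusted p = 6.69e-05) at 72h. Tyro3, the third kinase of this family, was read 0 to 12 times per Kaede-green library, with a log2 fold change of 1.00 ± 0.82 SE (adjusted p = 0.534) at 24h, -1.87 ± 0.63 (adjusted p = 0.0369) at 72h and -0.43 ± 0.53 (adjusted p = 0.623) over both times.

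Folr2, which encodes a folate receptor anchored in the membrane of macrophages (chr7:101839988-101857194, - strand), had the largest difference of the 9 genes. Kaede-green libraries had 1, 0, 2 and 0 counts at 24h and 0, 2, 0 and 3 counts at 72h. Kaede-red libraries had 111, 51, 35 and 61 counts at 24h (9.72, 6.19, 6.34 and 3.93 CPM) and 64, 138, 24 and 129 counts at 72h (2.50, 3.47, 3.62 and 2.71 CPM). No Kaede-green library exceeded 0.778 CPM. The pooled counts, set against the scaled depth of their libraries, gave a ratio of red to green of 22.4 at 24h (exact 95% interval 7.59 to 109) and 8.31 at 72h (3.53 to 25.8), which covers counting error only. The fitted log2 fold change was 4.49 (95% interval 3.12 to 5.86, adjusted p = 3.97e-05) at 24h and 3.05 (1.78 to 4.32, adjusted p = 0.000698) at 72h, on 3 and 5 Kaede-green counts. It was 5.33 at 24h without Kaede-green 24h replicate 3 and 3.87 at 72h without Kaede-green 72h replicate 4, the libraries that held most of those counts. The span of Folr2 overlaps that of the antisense gene Gm10602. Where exons coincide, which was not examined, antisense reads cannot be told apart from those of Folr2 if strand was not used.

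**Figure D2:**
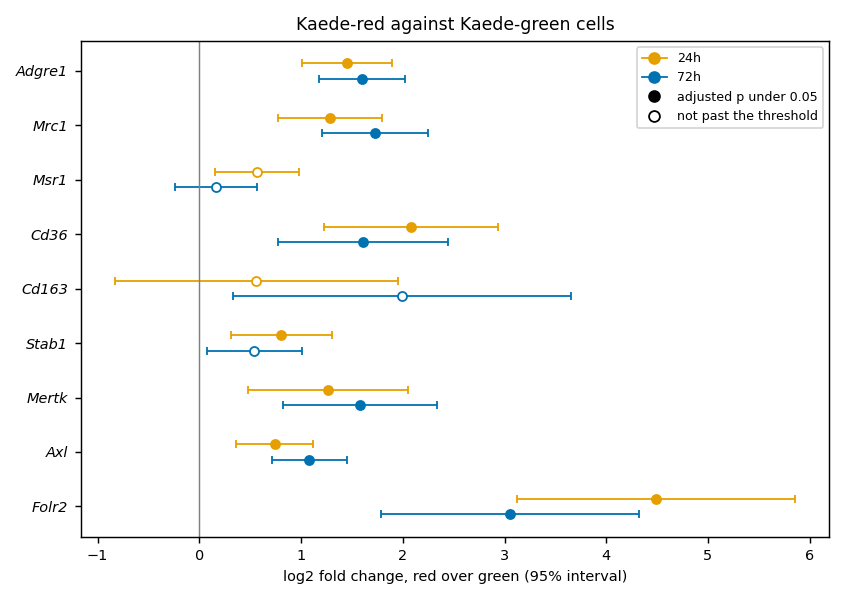
Log2 fold change of Kaede-red over Kaede-green cells (horizontal axis) with its 95% interval from edgeR for the 9 tested receptor genes at 24h and at 72h (4 libraries a group). Filled points passed an adjusted p of 0.05: all but Msr1 and Cd163 at 24h, and all but Msr1, Cd163 and Stab1 at 72h.

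The share of Rn45s was used as a covariate in a further fit, since it differed between the colours. Because share and colour moved together, this fit can hardly separate them. A call lost or kept in it therefore does not show what part Rn45s had. All 9 differences stayed positive at all 3 comparisons. Over both times 4 receptor genes were called higher, namely Adgre1 (log2 fold change 1.15, adjusted p = 0.00603), Mrc1 (1.50, adjusted p = 0.00520), Cd36 (1.85, adjusted p = 0.0254) and Folr2 (3.32, adjusted p = 0.00395). The same 4 were higher at 24h, and Adgre1 and Mrc1 at 72h, where this fit called 0.529% (for both times), 0.913% (24h) and 0.28% (72h) of all tested genes higher. Mertk (1.34), Axl (0.68) and Stab1 (0.68) were not called over both times in this fit, with adjusted p of 0.102, 0.102 and 0.328, and neither were Msr1 (0.38, adjusted p = 0.648) and Cd163 (0.91, adjusted p = 0.797). With every library thinned to 468092 counts outside Rn45s, 8 receptor genes were higher for both times (7.5% of all genes in that fit), 5 for 24h (2.39%) and 6 for 72h (5.52%). The counts of both fits are a description, since Cd36, Cd163, Folr2 and Mertk passed the filter through the Kaede-red libraries.

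The differences were also read as ratios to Csf1r, the receptor for the growth factor CSF1, and to Itgam, which encodes the sorted protein CD11b, in the same library. Such ratios do not depend on how libraries are scaled and were given no test. At 24h the level of Itgam was alike in both colours (Kaede-green 76.4 ± 5.85 CPM, Kaede-red 74.9 ± 12.5 CPM, SD, n = 4). Relative to Itgam, 8 of the 9 genes were higher in every Kaede-red than in every Kaede-green library at 24h, where 5.52% of all genes were, and Cd163 overlapped. Cd36, Cd163, Folr2 and Mertk passed the filter through the Kaede-red libraries, so that counts of ratios over the 9 are a description. Adgre1, Mrc1, Msr1, Axl and Stab1, which reached it in Kaede-green libraries by themselves, were among the 8. The mean log2 ratio to Itgam differed by 1.46 for Adgre1, 1.36 for Mrc1, 2.05 for Cd36 and 3.41 for Folr2. Relative to Csf1r at 24h, Adgre1 (1.09) and Folr2 (3.05) stood apart, as did 1.03% of all genes, and the other 7 overlapped.

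At 72h both reference genes were higher in Kaede-red cells. Csf1r went from 35.7 ± 11.0 CPM among Kaede-green to 106 ± 2.11 CPM among Kaede-red libraries, and Itgam from 79.8 ± 18.2 to 148 ± 11.6 CPM (SD, n = 4). Relative to Itgam, Adgre1 was still above in every Kaede-red library (0.67, as for 0.363% of all genes), and Msr1 was below (-0.74, as for 43.6%). With 0.5 added counts in place of 1, Folr2 (2.21) and Cd36 (0.61) also stood above in every Kaede-red library. Relative to Csf1r, the difference of Adgre1 was -0.03, with overlap, and Msr1 (-1.44) and Stab1 (-1.12) were below in every Kaede-red library, as were 73.6% of all genes. The other 6 genes overlapped between the colours in their ratio to Csf1r.

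**Figure D3:**
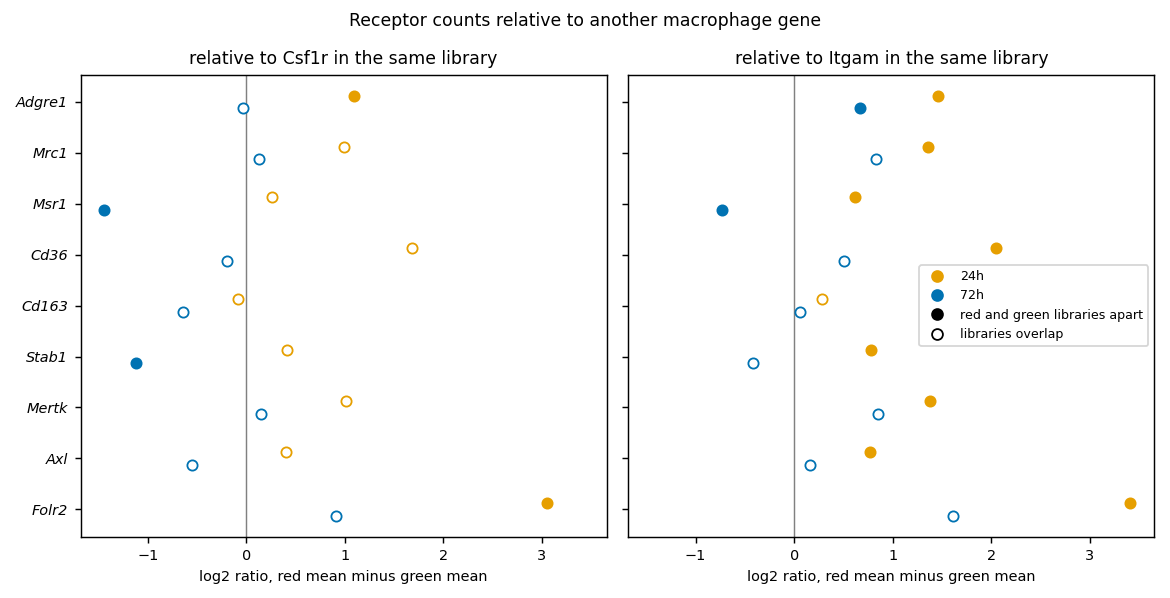
Kaede-red minus Kaede-green cells (horizontal axis): mean log2 ratio of each receptor gene to Csf1r (left) or Itgam (right) in the same library, at 24h and 72h (4 libraries a group). Filled points mark genes whose Kaede-red libraries lie all above or all below the Kaede-green libraries: with 1 added count, 8 of 9 relative to Itgam at 24h, and 2 of 9 in the other 3 sets.

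Between 24h and 72h no receptor gene passed the threshold in either colour by edgeR. In Kaede-green cells 1 of the 9 had an unadjusted p under 0.05, and over all tested genes 0 were called, with 835 at an unadjusted p under 0.05 (3 higher and 10 lower by DESeq2, none of them a receptor gene of the list). That gene was Mrc1, at 19.5 ± 6.58 CPM at 24h and 12.3 ± 4.34 CPM at 72h (SD, n = 4, log2 fold change -0.65, adjusted p = 0.490), with libraries that overlapped. Adgre1 was higher in every Kaede-green library of 72h than of 24h, as were 1.9% of all tested genes (log2 fold change 0.33, adjusted p = 0.704). The log2 fold change was -1.81 for Cd163 (95% interval -3.75 to 0.13), on 11 and 4 counts. It was 0.33 for Folr2, 0.19 for Axl, 0.13 for Msr1, 0.026 for Stab1, -0.29 for Cd36 and -0.30 for Mertk, with overlap in each.

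In Kaede-red cells 4 of the 9 had an unadjusted p under 0.05, as did 2213 (23%) of all tested genes, of which 4.91% were called higher and 3.76% lower after adjustment. Folr2 went from 6.55 ± 2.39 to 3.08 ± 0.554 CPM (SD, n = 4), and all libraries of 72h were below all of 24h, as for 8.76% of all tested genes. Its log2 fold change was -1.10 (95% interval -1.84 to -0.37, adjusted p = 0.0505). Cd36 was at 8.55 ± 3.03 and 5.12 ± 0.809 CPM (log2 fold change -0.76, adjusted p = 0.118), with overlap. Axl was at 45.8 ± 6.28 and 65.9 ± 7.40 CPM (0.53, 0.17 to 0.88, adjusted p = 0.0534) and Adgre1 at 38.0 ± 9.69 and 53.0 ± 4.01 CPM (0.48, adjusted p = 0.121), and both were higher in every library of 72h than of 24h, as were 11.8% of all tested genes. The other 5 overlapped between the times, with log2 fold changes of -0.37 for Cd163, -0.28 for Msr1, -0.24 for Stab1, -0.21 for Mrc1 and 0.016 for Mertk. DESeq2 called Axl higher (adjusted p = 0.00977) and Folr2 lower (adjusted p = 0.0104). Whether the red-green difference itself changed from 24h to 72h was tested by an interaction, which called none of the 9 by edgeR or DESeq2, where edgeR called 0.436% of all tested genes higher and 0.332% lower, and none had an unadjusted p under 0.05, against 15.3% of all tested genes. Estimates ran from -1.44 for Folr2 to 1.43 for Cd163 (95% interval -0.81 to 3.67). The intervals were wide, from -0.46 to 0.75 on the log2 scale for Adgre1 and from -3.87 to 1.00 for Folr2.

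**Figure D4:**
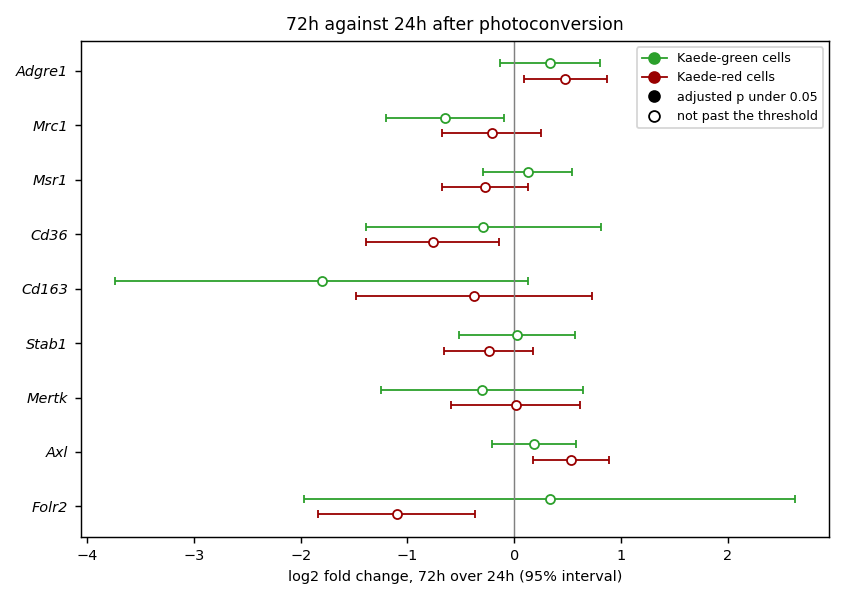
Log2 fold change of 72h over 24h (horizontal axis) with its 95% interval from edgeR for the 9 tested receptor genes, for each colour (4 libraries a group). All points are open, as none passed an adjusted p of 0.05. The intervals of Folr2, Cd36, Axl and Adgre1 in Kaede-red cells and of Mrc1 in Kaede-green cells do not reach 0.

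Per kilobase of exon, Msr1 led in Kaede-green cells at 24h (11.0 ± 2.09 CPM per kb) and 72h (12.1 ± 2.96) and in Kaede-red cells at 24h (16.3 ± 2.05, SD, n = 4). Axl, Adgre1 and Mrc1 followed in Kaede-green cells, at 5.42, 4.24 and 3.06 CPM per kb at 24h. In Kaede-red cells of 72h Adgre1 stood first at 16.4 ± 1.24 CPM per kb, before Msr1 (13.5 ± 2.04) and Axl (13.1 ± 1.47), and neighbours in this order overlapped in range. Folr2 was in place 8 or 9 in Kaede-green cells and in place 5 in both groups of Kaede-red cells (4.23 ± 1.54 and 1.99 ± 0.359 CPM per kb). Cd163 and Marco were last or next to last in Kaede-red cells. Stab1, Mertk and Cd36 overlapped in range in Kaede-green cells of both times.

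The genes whose log2 CPM ran most like a receptor gene over the 16 libraries were found by the root mean square of the difference, after centring. Dab2 (0.21) and Lgals3bp (0.25) were nearest to Adgre1, whose own SD was 0.82. For Axl (SD 0.52) they were Nckap1l (0.15) and Cltc (0.17), for Mrc1 (SD 0.90) Mmp13 (0.42) and Gnpda1 (0.45), and for Stab1 (SD 0.38) Slc3a2 (0.20) and Osbpl8 (0.22). Folr2 (SD 2.02) had no close match, with Cbr2 at 1.03 and the complement gene C1qa at 1.04. Mmp13 was also the nearest to Mertk (0.56). These distances are a description, and the 16 points share depth and colour.

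The ligands and partners of these receptors were read from lists of related genes, beside the 9.96% of all tested genes called higher over both times. Of 14 other scavenger receptors 7 were tested, and 3 were higher in Kaede-red cells over both times: Cxcl16 (log2 fold change 1.59 ± 0.19 SE), which also binds oxidised lipoprotein, Cd68 (1.14 ± 0.16) and the endocytic receptor Lrp1 (0.75 ± 0.14). Scara5, a ferritin receptor, was lower (-1.23 ± 0.39). Of 16 genes for the uptake of dying cells 11 were tested and 4 were higher, Lrp1, the integrin subunit Itgb5 (0.59 ± 0.19), the regulator of cell movement Dock2 (0.45 ± 0.14) and the Mertk and Axl ligand Gas6. At 24h none of the 11 was called, and at 72h the same 4 were higher and Tyro3 was lower. Gas6 had 1 and 3 counts in the Kaede-green groups of 24h and 72h and 69 and 235 in the Kaede-red groups. Pros1, which encodes the Mertk ligand protein S, had a log2 fold change of 0.38 ± 0.34 (adjusted p = 0.471). Gas6, Pros1, Tyro3 and Mfge8 did not reach the filter on low counts in the Kaede-green libraries by themselves, and 3 of the other 7 were higher. Of 12 close relatives of the receptors 5 were tested, none was higher, and Adgre4 and Scara5 were lower.

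All 10 genes for lipid handling were tested and 7 were higher over both times, among them the sterol-sensing nuclear receptor Nr1h3 (1.44 ± 0.23), the cholesterol exporters Abca1 (1.34 ± 0.18) and Abcg1 (1.01 ± 0.16), the lysosomal lipase Lipa (1.20 ± 0.21) and the lipid droplet protein Plin2 (0.95 ± 0.14). Of 8 genes for haem and iron 5 were higher over both times, Slc40a1, Ftl1 (0.85 ± 0.16), Fth1 (0.68 ± 0.15), Hmox1 (0.64 ± 0.21) and Lrp1. At 24h only Slc40a1 and Fth1 were higher, and at 72h only Ftl1 and Lrp1. The iron exporter Slc40a1 in Kaede-red cells was at 5.29 ± 3.73 CPM after 24h and 0.623 ± 0.155 CPM after 72h (log2 fold change -3.01 ± 0.55 SE, adjusted p = 0.00121). The median log2 fold change over both times was 0.98 for the tested lipid genes, 0.66 for the haem and iron genes, 0.33 for the uptake genes and 0.14 for the other scavenger receptors, against 0.06 for all tested genes. In the Kaede-green libraries by themselves 8 lipid genes (6 of them higher), 7 haem and iron genes (4 higher) and 5 other scavenger receptors (3 higher) reached the filter, so that these medians are a description too.

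Markers of other cell types moved with colour too. The 4 monocyte genes included 2 that were lower in Kaede-red cells over both times, Plac8 (log2 fold change -1.91 ± 0.18 SE) and Chil3 (-1.29 ± 0.24). Plac8 was also lower at 24h and at 72h. Chil3 was lower at 24h (-2.20) and was not called at 72h (-0.39, adjusted p = 0.476). Ly6c2 (-0.12 ± 0.18, adjusted p = 0.691) and Ccr2 (-0.0093 ± 0.13, adjusted p = 0.974) were not called, with values of 0.45 and 0.17 at 72h. Plac8, which is high in monocytes, was at 847 ± 162 and 541 ± 134 CPM in the Kaede-green groups of 24h and 72h and at 223 ± 29.4 and 145 ± 48.3 CPM in the Kaede-red groups (SD, n = 4). The 4 endothelial genes, relevant to Stab1, Cd36 and Mrc1, which endothelial cells also express, gave sums of 9.75 to 19.0 CPM for Kaede-green and 17.9 to 36.8 CPM for Kaede-red libraries. Kdr and Pecam1 were higher, Cdh5 was lower (-1.42 ± 0.49) and Tie1 was at 0 in all Kaede-green libraries of 72h. The 5 fibroblast genes gave 40.3 to 52.2 CPM and 11.9 to 37.3 CPM, in the same order. Col1a2 (-1.39 ± 0.25), Col3a1 (-1.13 ± 0.18) and Col1a1 (-1.12 ± 0.20) were lower over both times, and Pdgfra was not called. At 24h none of these 4 tested genes was called, and at 72h all 4 were lower. The 6 dendritic cell genes summed to 1.22 to 5.08 CPM, the 3 erythroid genes to at most 5.79 CPM and the 3 lymphatic endothelial genes to at most 1.99 CPM. Of these, Ccr7 (4.52 ± 0.89) and Lyve1 (4.12) were higher over both times, and Cd209a (-0.34 ± 0.53) was not called. Ccr7 was higher at 24h and not called at 72h. Lyve1, the only lymphatic endothelial gene tested, was called at neither time by itself. None of these named genes reached the filter on low counts in the Kaede-green libraries by themselves. The 6 neutrophil genes summed to 8.58 to 14.3 CPM in 3 groups and to 17.8 to 22.3 CPM in Kaede-red cells at 72h. Csf3r was higher over both times (0.67 ± 0.17), and Mmp8 was not called. Genes of eosinophils, T cells, B cells, NK cells, platelets and tumour epithelium were at or near 0, with sums of at most 3.67 CPM. The part of these cells in the receptor differences was not tested.

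**Figure D5:**
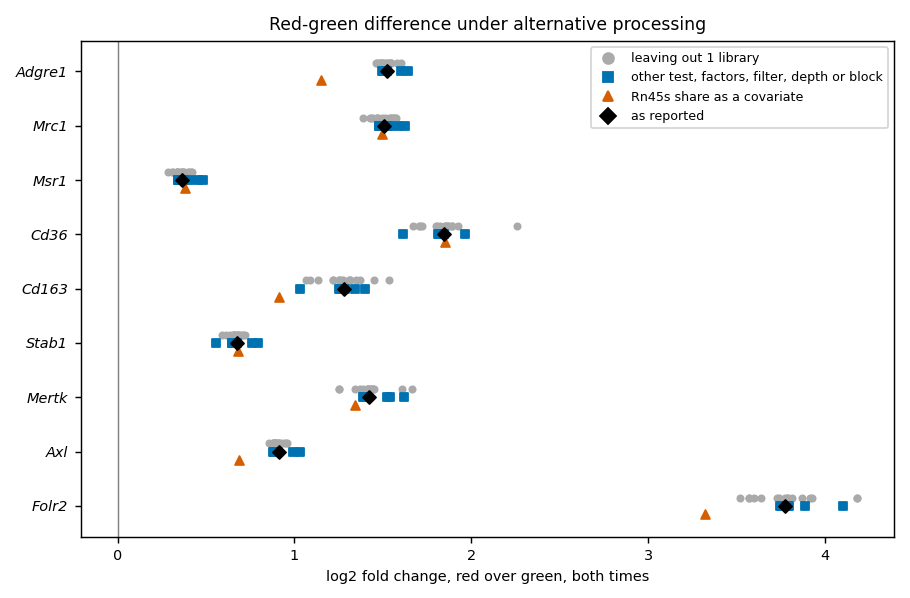
Log2 fold change of Kaede-red over Kaede-green cells over both times (horizontal axis) for the 9 tested receptor genes under the reported fit (diamond), leaving out 1 of 16 libraries (grey), another test, factors, filter, depth or block (squares) and with the Rn45s share as a covariate (triangle). All points lie above 0; the largest shift under the covariate is that of Folr2, from 3.77 to 3.32.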

How the data were processed

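The authors trimmed the paired reads with Trim Galore, which also took 3 bases off the start of read 1, aligned them to mm10 with HISAT2 and deposited the raw counts per gene that featureCounts gave, 1 table per library and a combined table, which was not used here. The annotation, the strand setting and the versions are not given in the sources used here. Libraries were made from total RNA with a stranded kit for small amounts, and Rn45s was left in the counts. The labels and the paper name different RNA extraction kits.

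The counts were tested in R 4.3.3 with edgeR 4.0.16 (limma 3.58.1): genes kept by filterByExpr with default settings (minimum count 10, minimum total 15), TMM factors, 1 mean per group, 1 quasi-likelihood fit of all 16 libraries, and Benjamini-Hochberg adjustment over the 9642 genes tested. Genes with an adjusted p under 0.05 were called. The fit was tested on simulated data first. Red against green over both times is the mean of the differences at 24h and 72h. CPM are scaled by TMM, and log2 CPM used a prior count of 2. Ratios to Csf1r and Itgam used 1 added count. Positions and exon lengths came from the GENCODE vM21 annotation of mm10 by symbol, for all 10 genes, and promoter windows from RefSeq. The rule was to name all 10 receptor genes in every comparison (Marco could not be tested), and from the lists of related genes mainly those called. The genes and lists were chosen with earlier results of these data known. From the monocyte list 1 gene is not reported here. Intervals of pooled counts cover counting error only.

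Within the 24 pairs of libraries of a group, chi-square per gene was between 3.21 and 116, so no library was a copy of another of its group. Replicate numbers are shared by the groups but are not stated to pair them. Libraries with the same number at the same time had correlations of their deviations from -0.018 to 0.15 over 8 pairs, 1 of them over 0.1. At 24h these were 0.049 to 0.15, all positive, against -0.13 to 0.15 for green and red libraries with different numbers. At 72h they were -0.018 to 0.029 against -0.056 to 0.060. Whether libraries of 24h are paired is thus not settled, and no pairing was assumed. The alternatives were DESeq2 1.42.0, median-of-ratios factors, total-count scaling, leaving out Rn45s, other filters, only the groups compared, the Rn45s share as a covariate, thinning, a replicate block and leaving out each library.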

Additional observations from a re-analysis of the deposited data

Results flagged for a closer look

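In 5 of 36 groups of 4 libraries, 1 library lay far from the other 3 on the log2 CPM scale, with a gap to its neighbour that exceeded Dixon's critical value for 4 samples as a share of the range, which chance gives in about 1 of 20 groups. Kaede-green 72h replicate 4 was the highest of its group for Adgre1 (4.40, next 4.05) and for Axl (5.17, next 4.91). This library also had the lowest Rn45s share of the Kaede-green libraries (79.0%), and its part in these values was not tested. It lay below all Kaede-red libraries for both genes. Kaede-green 24h replicate 4 was the lowest for Cd163 (-0.78, next 0.36), on 1 count. Kaede-red 72h replicate 3 was the lowest for Mertk (2.67, next 2.94), and Kaede-green 24h replicate 3 was the lowest for Stab1 (2.47, next 2.91).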

How the results depend on the processing

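The differences of the 9 tested genes between Kaede-red and Kaede-green cells kept their sign under every alternative in all 3 comparisons of the colours. When 1 library was left out, 7 to 8 were called higher for both times, 5 to 7 for 24h and 6 to 7 for 72h. With the Rn45s share as a covariate 4 were higher for both times, 4 for 24h and 2 for 72h. Scaling by total counts moved the median gene by 2.20 on the log2 scale over both times and called 9318 of all tested genes higher and 10 lower (9 of 9 receptor genes higher), and scaling by counts outside Rn45s moved it by 0.82 (5889 and 234). Folr2 had the largest and Msr1 the smallest difference over both times under either scaling. Over the other settings all tested genes called higher over both times ranged from 51, with the covariate, to 1231, without a filter (960 as reported), and those called lower from 105 to 1230 (990).

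From 24h to 72h in Kaede-red cells, 1 receptor gene (Axl) was called higher by DESeq2, with at least 10 counts in every library and with only the groups compared, and 0 to 1 without 1 library. Called lower were 1 (Folr2) by DESeq2, with median-of-ratios factors and with Rn45s left out, 2 (Folr2 and Cd36) with only the groups compared, and 0 to 2 without 1 library. The ratio of Folr2 to Itgam at 24h differed by 4.07 between the colours with 0.5 added counts, and that of Cd163 to Csf1r by 0.11 (-0.083 as reported).

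Some changes with time turned direction, none of them called. For Mertk in Kaede-red cells (0.016 as reported) the log2 fold change was -0.031 by DESeq2, -0.035 with median-of-ratios factors, -0.039 scaled by counts outside Rn45s, -0.0066 with Rn45s left out, -0.031 with the covariate, -0.036 thinned, and -0.032 to 0.13 without 1 library. Scaling by total counts moved the median gene by 0.74 from 24h to 72h in Kaede-green and by 0.42 in Kaede-red cells, and the median interaction was -0.33. Values were then 0.050 for Mrc1 (-0.65 as reported), 0.63 for Mertk and 0.41 for Cd36 in Kaede-green cells and 0.13 for Stab1, 0.16 for Mrc1 and 0.035 for Msr1 in Kaede-red cells, and the change of the difference between the colours was -0.33 for Adgre1, -0.15 for Mertk and -0.060 for Axl. That of Adgre1 was -0.11 scaled by counts outside Rn45s and -0.018 thinned, and that of Folr2 in Kaede-green cells was -0.14 thinned. Without 1 library, values in Kaede-green cells ranged from -0.12 to 0.092 for Stab1, -0.79 to 0.098 for Mertk, -0.62 to 0.56 for Cd36, -0.48 to 1.17 for Folr2 and -0.039 to 0.23 for Msr1, and the change of the difference from -0.011 to 0.28 for Adgre1 and -0.10 to 0.81 for Mertk. The cause was not tested.

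With a replicate block, 8 receptor genes were higher for both times (9.25% of all tested genes), 7 for 24h (2.87%) and 6 for 72h (7.99%). Msr1 then passed for both times (adjusted p = 0.0335) and for 24h (adjusted p = 0.0454), and Stab1 was not called at 24h (adjusted p = 0.0661). The block changed no other call of these genes. Its counts are a description, since Cd36, Cd163, Folr2 and Mertk passed the filter through the Kaede-red libraries. Depth limits Marco, Cd163 and the Kaede-green levels of Folr2, Cd36 and Mertk.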
